A study of Mus musculus with 12 samples.

Results

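NAD and kynurenine metabolism in bone marrow-derived macrophages (BMDMs, macrophages grown in culture from mouse bone marrow) was followed through 9 genes, which were picked by symbol from the 55335 genes of the table: Nampt, Nmnat1, Naprt, Nadsyn1, Kynu, Kmo, Cd38, Sirt1 and Nnmt. RNA of wild-type and Nlrp3-/- BMDMs was sequenced in 12 libraries, 3 in each of 4 groups. Both genotypes had a control and an LPS+ATP group. The controls were unstimulated, and per the labels the LPS+ATP groups had 4 hours of lipopolysaccharide (LPS) followed by 30 minutes of ATP, whereas the methods of the study give a longer schedule for both agents. The mice were 8 weeks old, and the marrow of every group was cultured for 7 days with macrophage colony-stimulating factor. Nlrp3-/- mice lack NLRP3, the sensor of the inflammasome that ATP triggers after LPS, in all tissues and not only in macrophages. The sources do not say whether the 3 libraries of a group came from separate mice or cultures, so p-values measure the spread between these libraries, which may be technical.

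NAD is the electron carrier of energy metabolism and is also consumed as a substrate. Cells remake it from nicotinamide by the salvage pathway, in which NAMPT makes nicotinamide mononucleotide and the NMNAT enzymes turn this into NAD. They also make it from nicotinic acid by the Preiss-Handler pathway of NAPRT, NMNAT and NADSYN1, and de novo from tryptophan by the kynurenine pathway, to which KMO and KYNU belong. CD38 and its relative BST1 hydrolyze NAD, sirtuins such as SIRT1 use it to remove acyl groups from proteins, poly(ADP-ribose) polymerases (PARPs) use it to modify proteins with ADP-ribose, and NNMT methylates nicotinamide and so takes it out of salvage. In macrophages CD38 and NAMPT are known as genes that respond to LPS.

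Values are FPKM, which counts fragments relative to the length of the gene and to the fragments of the library. They are scaled for length, so the levels of different genes can be set side by side. FPKM holds no read count, and the depth in reads is therefore unknown, although the spacing of low values put the relative depth of the libraries between 1.0 and 1.218. The FPKM of a library summed to 283278 to 299393. Nlrp3 was listed at 0 in all 6 Nlrp3-/- libraries and averaged 9.68 ± 0.425 FPKM in wild-type control and 32.9 ± 0.801 FPKM in wild-type LPS+ATP BMDMs (SD, n = 3). All 8 macrophage markers were at 1 FPKM or more in every library, although 5 of them were lower and 0 higher in Nlrp3-/- control and 4 lower and 0 higher in Nlrp3-/- LPS+ATP BMDMs than in wild-type (Cd68 was 1450.4 and 877 FPKM in the control groups). Among all genes tested below, 14.5% were lower and 33.3% higher in control, and 12.6% and 35.9% with LPS+ATP. Every Nlrp3-/- library had 32.8 to 56.3 FPKM of Xist, against at most 0.0416 FPKM in wild-type libraries, and 0 FPKM of the Y-linked Uty, Kdm5d, Eif2s3y and Ddx3y, so sex and genotype cannot be told apart in any comparison below. Nnt, which differs between C57BL/6 substrains, was 4.09 to 10.3 FPKM in the wild-type and 0.670 to 1.47 FPKM in the Nlrp3-/- libraries. A difference of substrain therefore cannot be told apart from genotype either. Markers of other cells also differed with genotype. The summed FPKM of 6 fibroblast markers was 162.1 to 167.4 in wild-type control, 190.3 to 192.7 in wild-type LPS+ATP, 1187 to 1204 in Nlrp3-/- control and 924.9 to 940.4 in Nlrp3-/- LPS+ATP libraries. That of 8 neutrophil and precursor markers was 239.4 to 272.3, 311.7 to 323.4, 1414 to 1458 and 631.5 to 636.8 in the same order. In wild-type BMDMs the rise of that sum with LPS+ATP came from Lcn2, which went from 9.96 to 217.7 FPKM, while the other 6 tested markers of the list were lower. None of these markers was at 0 in a whole group.

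The promoters of the 3 genes on which the results turn are shown because Nampt and Cd38 rose together with LPS+ATP and Nmnat1 differed with genotype. They were read from RefSeq on GRCm38.p6, from 250 bases before to 50 bases after the RefSeq start of the gene, 5′ to 3′ on the strand of the gene. The windows were at chr12:32820085-32820384 on the + strand for Nampt, chr5:43868559-43868858 on the + strand for Cd38 and chr4:149485161-149485460 on the - strand for Nmnat1, and were 76.3%, 51.7% and 69.0% G or C. The RefSeq starts are 32820335 for Nampt, 43868809 for Cd38 and 149485210 for Nmnat1, and differ from the ends of the GENCODE genes given below, which for Nampt and Cd38 begin before the window. Nmnat1 has 2 overlapping windows in RefSeq, of which the one with the upstream start is shown. Capitals mark GCGTG, the core of the xenobiotic response element that the aryl hydrocarbon receptor binds, or its reverse complement CACGC.
Nampt: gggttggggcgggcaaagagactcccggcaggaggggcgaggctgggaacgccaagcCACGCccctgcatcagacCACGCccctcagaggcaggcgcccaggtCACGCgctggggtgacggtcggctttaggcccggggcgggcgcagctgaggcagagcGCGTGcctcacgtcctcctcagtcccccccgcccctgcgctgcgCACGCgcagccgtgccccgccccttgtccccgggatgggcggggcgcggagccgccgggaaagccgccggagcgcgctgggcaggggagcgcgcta
Cd38: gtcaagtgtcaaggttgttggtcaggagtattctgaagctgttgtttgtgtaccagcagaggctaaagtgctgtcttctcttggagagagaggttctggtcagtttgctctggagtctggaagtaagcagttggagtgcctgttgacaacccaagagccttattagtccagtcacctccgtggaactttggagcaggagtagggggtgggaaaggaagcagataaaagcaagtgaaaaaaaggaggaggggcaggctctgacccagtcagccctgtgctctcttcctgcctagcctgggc
Nmnat1: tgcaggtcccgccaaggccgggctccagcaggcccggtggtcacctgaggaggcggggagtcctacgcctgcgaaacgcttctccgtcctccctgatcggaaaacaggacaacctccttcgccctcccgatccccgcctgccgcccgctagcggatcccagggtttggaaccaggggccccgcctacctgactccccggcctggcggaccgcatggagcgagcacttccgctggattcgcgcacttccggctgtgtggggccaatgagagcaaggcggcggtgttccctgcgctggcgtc

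The Nampt window held 5 such cores, and 32.4% of all 32851 promoter windows held at least 1. The share of windows with as many as 5 was not computed, and the windows were not matched for G or C content. Neither strand of the Cd38 and Nmnat1 windows held it. Of the other motifs searched on both strands, the NF-kB-like pattern (GGGA and CC, 4 bases apart) was in 20.7% of all windows, the AP-1 site (TGANTCA) in 7.81%, the core of the interferon-stimulated response element (GAAA repeated after any pair of bases) in 3.44% and the cyclic AMP response element (TGAC followed directly by GTCA) in 1.79%, and none of these letters was in the 3 windows shown. Among the other members with a window, the NF-kB-like pattern was found once in that of Nadsyn1, as GGGAGGGGCC, and at 2 positions in that of Sirt1, as GGGAGGCGCC and GGGAAGGGCC, next to 2 cores of the xenobiotic response element. A total of 6 of the 9 members had a window.

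With LPS+ATP, Nampt and Cd38 rose and Naprt and Nnmt fell in both genotypes. Nadsyn1 and Sirt1 were lower and Nmnat1 was slightly higher past the test, but the calls of Nadsyn1 and Sirt1 were lost with median-ratio scaling and those of Nmnat1 in some settings, among them the removal of 1 library. A gene passed the test at a Benjamini-Hochberg adjusted p under 0.05 in limma on log2(FPKM + 1) over 12622 genes with at least 1 FPKM in at least 3 libraries. This scale understates changes of genes with low FPKM. Of the 7 members tested, 3 were higher and 4 were lower with LPS+ATP in wild-type BMDMs, beside 23.3% higher and 53.1% lower among all tested genes. Nlrp3-/- BMDMs gave the same counts of 3 and 4, beside 20.6% and 53.8%. An absolute log2 fold change that reached 1 (the fold limit) was found for 3 members in each genotype, beside 19.4% of all genes in wild-type and 14.8% in Nlrp3-/- BMDMs. Without stimulation, 2 of the 7 were higher and 3 were lower in Nlrp3-/- BMDMs (33.3% and 14.5% of all genes), and with LPS+ATP also 2 were higher and 3 lower (35.9% and 12.6%). Between genotypes 2 members passed the fold limit in each state, beside 6.71% of all genes in control and 5.05% in LPS+ATP BMDMs. The effect of LPS+ATP itself differed between genotypes for 1 member in each direction (14.7% higher and 13% lower among all genes), and 1 of these differences was at least 1 on the log2 scale, as were 2.15% of all. The members that missed the filter, Kmo and Kynu, are given by their values and have no part in these counts.

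The median log2 fold change of the 7 members with LPS+ATP was -0.34 in each genotype, beside -0.25 (wild-type) and -0.24 (Nlrp3-/-) over all tested genes. Between genotypes it was -0.03 in control and -0.06 in LPS+ATP BMDMs, beside 0.09 and 0.11 over all tested genes, and for the interaction -0.03 beside 0.02. Median-ratio scaling between libraries moved the median of all genes by 0.25 (wild-type) and by 0.23 (Nlrp3-/-), and the shares of higher and lower genes to 35.4% and 35.7% and to 32.6% and 33% in these genotypes. Upper-quartile scaling gave 29.2% and 43.8% in wild-type and 25% and 44.5% in Nlrp3-/- BMDMs. Between genotypes, the shares higher and lower in Nlrp3-/- BMDMs became 20.5% and 25.6% in control and 22.7% and 27.2% in LPS+ATP BMDMs with median-ratio scaling, which moved the medians by -0.12 and -0.15, and 25.9% and 18.8% and 26.2% and 20.7% with upper-quartile scaling.

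**Figure D1:**
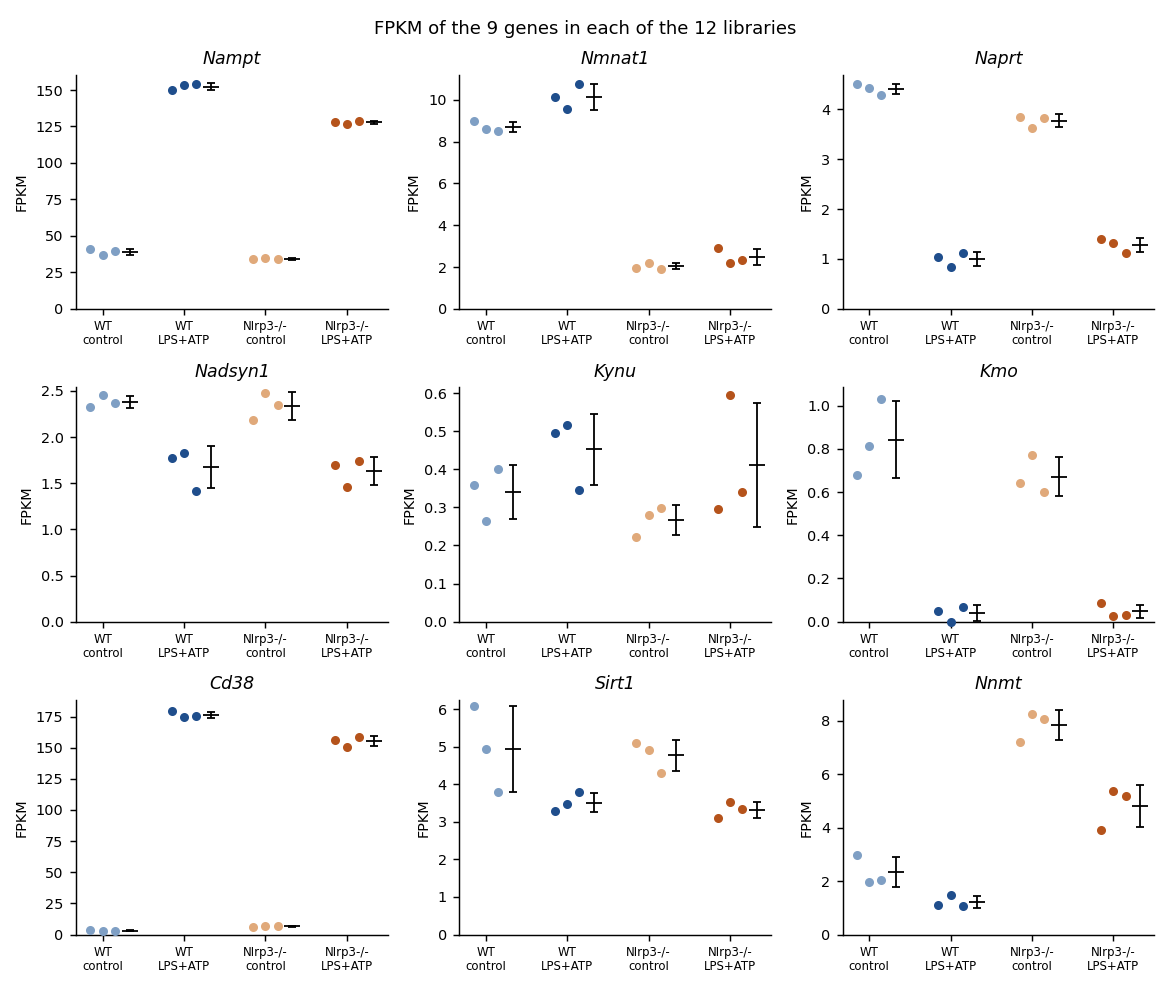
FPKM (y axis, linear, from 0) of the 9 members in each library, by group (x axis, WT is wild-type). Each dot is a library and the black bar is the mean ± SD (n = 3). Nampt and Cd38 were high in both LPS+ATP groups, Nmnat1 was low and Nnmt high in both Nlrp3-/- groups, and Kmo fell to between 0 and 0.0842 FPKM in the LPS+ATP libraries.

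Nampt, the rate-limiting enzyme of nicotinamide salvage, was the member with the highest level in both control groups. The gene (ENSMUSG00000020572) lies on chromosome 12 of GRCm38 from 32819545 to 32853349. The wild-type control libraries had 41.1, 37.0 and 39.6 FPKM and the wild-type LPS+ATP libraries 149.7, 153 and 154 FPKM. Nlrp3-/- control libraries had 33.9, 35.0 and 34.1 FPKM, and Nlrp3-/- LPS+ATP libraries 128, 127 and 129 FPKM. Every stimulated library was above every control library, and within each state every Nlrp3-/- library was below every wild-type library. Nampt rose 3.88-fold with LPS+ATP in wild-type BMDMs (log2 fold change 1.93, SE 0.04, limma Benjamini-Hochberg adjusted p = 1.27e-12) and 3.73-fold in Nlrp3-/- BMDMs (1.87, SE 0.04, adjusted p = 2.17e-12). The difference between these effects was -0.06 on the log2 scale, with a 95% interval of -0.18 to 0.05 (limma adjusted p = 0.39). Its level was lower in Nlrp3-/- BMDMs by a small amount, with log2 differences of -0.19 in control (limma adjusted p = 0.00118) and -0.25 in LPS+ATP BMDMs (adjusted p = 1.38e-04). The genes whose 4 group means of log2(FPKM + 1) ran closest to those of Nampt were Hcls1, Nod2 and Pfkfb3, with root-mean-square differences of 0.02, 0.04 and 0.05.

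Nmnat1, which encodes the nuclear enzyme that makes NAD from nicotinamide mononucleotide, was the member with the largest fold difference between genotypes. The gene (ENSMUSG00000028992) lies on chromosome 4 of GRCm38 from 149467572 to 149485202. The wild-type control libraries had 8.97, 8.63 and 8.51 FPKM of Nmnat1, and the Nlrp3-/- control libraries 1.98, 2.19 and 1.93 FPKM. After LPS+ATP it was 10.1, 9.54 and 10.8 FPKM in wild-type and 2.91, 2.17 and 2.36 FPKM in the Nlrp3-/- libraries. The lowest wild-type library was thus well above the highest Nlrp3-/- library in both states. Nmnat1 was 4.28-fold higher in wild-type than in Nlrp3-/- control BMDMs (log2 fold change of Nlrp3-/- against wild-type -1.68, SE 0.08, limma Benjamini-Hochberg adjusted p = 1.07e-08) and 4.09-fold higher after LPS+ATP (-1.68, adjusted p = 1.50e-08). LPS+ATP itself moved it by 0.20 in wild-type (limma adjusted p = 0.0326) and by 0.19 in Nlrp3-/- BMDMs (adjusted p = 0.0377), where the libraries of the 2 groups overlapped. Both of these small rises lost the call in some settings, with adjusted p up to 0.115 and 0.1555 without 1 library. The difference between them was -0.01 (limma adjusted p = 0.978).

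The 6 nearest tested genes on chromosome 4 in RefSeq order were chosen after the values of Nmnat1 were seen. Genes that missed the filter were skipped, and Tmem274, which overlaps Nmnat1 on the other strand, was not among them. None of the 6 was lower past the test in Nlrp3-/- BMDMs in either state. Of all tested genes, 14.5% were lower and 33.3% higher in control, and 12.6% and 35.9% with LPS+ATP. The log2 differences of the 6 in control BMDMs were 0.04 for Ube4b, 0.04 for Ube4bos3, -0.01 for Trmt112-ps2, 0.24 for Lzic, 0.11 for Ctnnbip1 and 1.19 for Clstn1. Those of Lzic and Clstn1 passed the test. With LPS+ATP they were -0.08, 0.53, 0.60, 0.18, 0.21 and 1.28 in the same order, and all but those of Ube4b and Lzic passed the test. The genes closest to Nmnat1 in their group means were Gm14292, Gm12220 and Uty, with root-mean-square differences of 0.04, 0.15 and 0.16. Uty is Y-linked, and Gm14292 had 13.2 FPKM in wild-type control and 3.58 FPKM in Nlrp3-/- control BMDMs. Nmnat2 and Nmnat3 encode the NMNAT enzymes of the Golgi and of mitochondria. Nmnat3 averaged 1.74 FPKM in wild-type and 1.64 FPKM in the Nlrp3-/- control libraries (log2 difference -0.05, limma Benjamini-Hochberg adjusted p = 0.531) and Nmnat2 stayed at or under 0.465 FPKM in every library. The FPKM of Nampt was 4.51 ± 0.193 times that of Nmnat1 in wild-type control, 15.1 ± 0.928 times in wild-type LPS+ATP, 16.9 ± 0.884 times in Nlrp3-/- control and 52.3 ± 7.49 times in Nlrp3-/- LPS+ATP libraries (SD, n = 3).

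Naprt, the first enzyme of the Preiss-Handler pathway, fell with LPS+ATP in both genotypes. It lies on chromosome 15 of GRCm38 from 75890956 to 75894481 (ENSMUSG00000022574). The control libraries had 4.50, 4.43 and 4.29 FPKM in wild-type and 3.86, 3.62 and 3.83 FPKM in the Nlrp3-/- BMDMs. With LPS+ATP it was 1.04, 0.843 and 1.11 FPKM in wild-type and 1.40, 1.32 and 1.11 FPKM in the Nlrp3-/- libraries. Control and stimulated libraries did not overlap in either genotype, and Nlrp3-/- libraries lay below wild-type in control and just above it with LPS+ATP (1.113 against 1.111 FPKM at the closest). The log2 fold change was -1.44 in wild-type (SE 0.07, limma Benjamini-Hochberg adjusted p = 2.79e-09) and -1.07 in Nlrp3-/- BMDMs (SE 0.07, adjusted p = 5.20e-08). The fall was smaller in Nlrp3-/- BMDMs by 0.37 (SE 0.09, limma adjusted p = 0.0120), and this difference was positive and passed the test in every setting in which Naprt was tested. The genotype differences within a state were small, at -0.18 in control (limma adjusted p = 0.0401) and 0.19 with LPS+ATP (adjusted p = 0.0323), and both lost the call in several settings. Exons of Naprt overlap those of Eef1d on the same strand, so its counts are uncertain. Eef1d was 7.18, 4.41, 8.66 and 6.79 FPKM on average in the 4 groups, in the order wild-type control and LPS+ATP and then Nlrp3-/- control and LPS+ATP.

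Nadsyn1, which amidates nicotinic acid adenine dinucleotide to NAD in the last step of that pathway, was low in all groups. It lies on chromosome 7 of GRCm38 from 143795584 to 143822849 (ENSMUSG00000031090). Control libraries had 2.33, 2.46 and 2.37 FPKM in wild-type and 2.18, 2.48 and 2.35 FPKM in the Nlrp3-/- BMDMs. LPS+ATP libraries had 1.77, 1.83 and 1.41 FPKM in wild-type and 1.70, 1.46 and 1.74 FPKM in the Nlrp3-/- BMDMs. The stimulated libraries were below the control libraries in each genotype, and the genotypes overlapped in each state. The log2 fold change with LPS+ATP was -0.34 in wild-type (limma Benjamini-Hochberg adjusted p = 0.00102) and -0.34 in Nlrp3-/- BMDMs (adjusted p = 0.00113). With median-ratio scaling it was -0.13 (limma adjusted p = 0.148) and -0.15 (adjusted p = 0.105), and with upper-quartile scaling -0.23 (adjusted p = 0.0143) and -0.26 (adjusted p = 0.0087), so the call depends on the scaling. Between genotypes the difference was -0.02 in each state, with a 95% interval of -0.18 to 0.14 in control BMDMs.

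The other genes of NAD synthesis and salvage comprised 12 genes, of which 7 were tested. With LPS+ATP 2 were higher and 4 lower in wild-type (median log2 fold change -0.38), beside 23.3% and 53.1% of all tested genes (median -0.25). In Nlrp3-/- BMDMs 2 were higher and 5 lower (median -0.37), beside 20.6% and 53.8% (median -0.24). With median-ratio scaling 1 of these 4 and 2 of these 5 stayed lower past the test. Nadk, the cytosolic kinase that makes NADP from NAD, rose from 33.5 to 46.2 FPKM on average in wild-type (log2 fold change 0.45, limma Benjamini-Hochberg adjusted p = 7.08e-07) and from 39.4 to 56.7 FPKM in Nlrp3-/- BMDMs (0.51, adjusted p = 2.81e-07). Nmrk1, a kinase of nicotinamide riboside, changed by -0.41 and -0.54 on the log2 scale in these genotypes (limma adjusted p = 0.00371 and 6.13e-04), which became -0.20 (adjusted p = 0.092) and -0.35 (adjusted p = 0.00906) with median-ratio and -0.30 and -0.45 with upper-quartile scaling. Pnp2, a purine nucleoside phosphorylase, rose from 12.4 to 74.5 FPKM in wild-type (2.51, limma adjusted p = 1.06e-09) and from 9.14 to 57.2 FPKM in Nlrp3-/- BMDMs (2.52, adjusted p = 1.40e-09). Its transcript is 97.2% identical, over part of its length, to that of Pnp, a housekeeping gene. The identifier that carries the symbol Pnp in the FPKM values was listed at 0 in all 12 libraries. In the annotation this identifier is a different gene, which overlaps Pnp and Pnp2 and is a near copy of both. The level of Pnp itself was therefore not examined. Reads of these copies cannot be separated, and the rise is uncertain as to which copy it belongs to.

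Messages of the kynurenine pathway were scarce. Kmo, the kynurenine 3-monooxygenase, is on chromosome 1 of GRCm38 from 175620381 to 175662116 (ENSMUSG00000039783). Its control libraries had 0.681, 0.814 and 1.03 FPKM in wild-type and 0.643, 0.772 and 0.601 FPKM in the Nlrp3-/- BMDMs. With LPS+ATP it was 0.0489, 0 and 0.0701 FPKM in wild-type and 0.0842, 0.0248 and 0.0327 FPKM in the Nlrp3-/- libraries. Every stimulated library was below every control library, although only 1 of the 12 reached 1 FPKM and Kmo missed the filter. Without the filter the log2 fold change with LPS+ATP was -0.82 in wild-type (limma Benjamini-Hochberg adjusted p = 4.23e-06) and -0.67 in Nlrp3-/- BMDMs (adjusted p = 2.27e-05), beside 24.8% and 27.3% of all genes lower in that fit. With a pseudocount of 0.1 in place of 1 it was -2.77 (limma adjusted p = 6.76e-06) and -2.41 (adjusted p = 2.63e-05), so the size at these levels depends on the pseudocount. The genotype differences in that fit were -0.14 in control (limma adjusted p = 0.219) and 0.01 with LPS+ATP (95% interval -0.15 to 0.17).

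Kynu, the kynureninase, is on chromosome 2 of GRCm38 from 43555329 to 43682715 (ENSMUSG00000026866). The highest of its 12 libraries had 0.596 FPKM. Its level was 0.358, 0.264 and 0.401 FPKM in wild-type control and 0.496, 0.517 and 0.345 FPKM in wild-type LPS+ATP libraries. In Nlrp3-/- BMDMs it was 0.223, 0.279 and 0.299 FPKM in control and 0.296, 0.596 and 0.340 FPKM in LPS+ATP libraries. Control and stimulated libraries overlapped in both genotypes. Without the filter the change with LPS+ATP was 0.11 in wild-type (95% interval -0.07 to 0.30, limma Benjamini-Hochberg adjusted p = 0.351) and 0.15 in Nlrp3-/- BMDMs (-0.03 to 0.33, adjusted p = 0.202).

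None of the other 10 genes from tryptophan to quinolinate and its branches passed the filter. Aadat and Acmsd were listed at 0 in all 12 libraries. Ido1 and Tdo2, which open the pathway by oxidizing tryptophan, did not exceed 0.194 and 0.323 FPKM, and Qprt, which leads from quinolinate into NAD synthesis, did not exceed 0.239 FPKM. Afmid, with at most 0.989 FPKM, and Kyat1, with at most 1.40 FPKM, were the highest of the list. Exons of Afmid are shared with Gm20708, so its value is uncertain.

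By contrast, all 5 genes of tryptophan uptake and other use were tested, and all 5 rose with LPS+ATP in both genotypes, also under median-ratio and upper-quartile scaling. Among all tested genes 23.3% were higher in wild-type and 20.6% in Nlrp3-/- BMDMs. The medians of the log2 fold changes of the 5 genes were 1.31 and 1.22. Slc3a2, the heavy chain of the large neutral amino acid transporters, rose from 55.7 to 177.6 FPKM in wild-type and from 65.4 to 162 FPKM in Nlrp3-/- BMDMs. Wars, the cytosolic tryptophanyl-tRNA synthetase, rose from 8.48 to 22.5 and from 9.76 to 24.1 FPKM. The light chain Slc7a8 rose by 1.98 on the log2 scale in wild-type and by 1.18 in Nlrp3-/- BMDMs, a difference of -0.80 (limma Benjamini-Hochberg adjusted p = 8.55e-07). Il4i1, a secreted amino acid oxidase that acts on phenylalanine and tryptophan, rose from 0.134 to 1.54 FPKM in wild-type and from 0.380 to 3.00 FPKM in Nlrp3-/- BMDMs. Its exons overlap those of Nup62, Atf5 and Tbc1d17, so these values are uncertain.

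The light chain Slc7a5 was the gene of this list that differed most with genotype. The wild-type control libraries had 3.83, 5.62 and 4.33 FPKM and the Nlrp3-/- control libraries 21.3, 21.2 and 20.4 FPKM. With LPS+ATP it was 8.63, 9.47 and 8.85 FPKM in wild-type and 28.1, 27.7 and 28.5 FPKM in the Nlrp3-/- libraries. The genotypes did not overlap in either state, and the log2 differences were 1.99 in control (limma Benjamini-Hochberg adjusted p = 1.14e-08) and 1.54 with LPS+ATP (adjusted p = 1.14e-07). Ahr, the aryl hydrocarbon receptor and a sensor of tryptophan metabolites, averaged 0.828 FPKM in wild-type and 2.67 FPKM in the Nlrp3-/- control libraries (log2 difference 1.02, limma adjusted p = 2.09e-06). Its target Cyp1b1 was 14.8 and 53.2 FPKM in these groups (1.79, limma adjusted p = 9.88e-10) and 31.1 and 78.2 FPKM with LPS+ATP (1.30, adjusted p = 1.83e-08). With LPS+ATP the log2 difference of Ahr was 0.20 and did not pass the test (limma adjusted p = 0.077). Exons of Ahr overlap those of Gm48236 on the other strand. The targets Ahrr and Cyp1a1 were not tested. Ahrr, the repressor of the receptor, was lower in Nlrp3-/- control libraries (0.351 to 0.561 FPKM) than in wild-type control libraries (0.630 to 0.733 FPKM), without overlap, and Cyp1a1 did not exceed 0.0527 FPKM. Nqo1, a quinone reductase that several factors regulate, rose with LPS+ATP by 1.08 in wild-type and by 1.14 in the Nlrp3-/- group (limma adjusted p = 6.55e-07 and 4.84e-07). Of the 4 tested genes in the aryl hydrocarbon receptor list 3 were higher in Nlrp3-/- control BMDMs and 0 lower, beside 33.3% and 14.5% of all tested genes. Fibroblast markers moved in the same direction with genotype. The part of other cells in these differences was not tested.

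Cd38, the main NAD hydrolase of immune cells, had the largest change of all members. The gene (ENSMUSG00000029084) lies on chromosome 5 of GRCm38 from 43868553 to 43912375. The wild-type control libraries had 3.42, 2.84 and 2.70 FPKM, and the wild-type LPS+ATP libraries 179, 175 and 175 FPKM. In Nlrp3-/- BMDMs the control libraries had 6.05, 6.55 and 7.07 FPKM and the LPS+ATP libraries 156, 151 and 158 FPKM. Control levels were higher in every Nlrp3-/- library than in any wild-type library, and the order was the opposite with LPS+ATP. Cd38 rose 59.0-fold with LPS+ATP in wild-type (log2 fold change 5.48, SE 0.07, limma Benjamini-Hochberg adjusted p = 3.63e-14) and 23.7-fold in Nlrp3-/- BMDMs (4.37, SE 0.07, adjusted p = 2.89e-13). The rise was smaller in Nlrp3-/- BMDMs, with a difference of -1.11 on the log2 scale (SE 0.09, 95% interval -1.31 to -0.90, limma adjusted p = 8.77e-06).

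Most of that difference lay in the control BMDMs, where Cd38 was 2.19-fold higher in the Nlrp3-/- than in the wild-type group (log2 difference 0.92, limma Benjamini-Hochberg adjusted p = 4.23e-07). With LPS+ATP the log2 difference was -0.18 (limma adjusted p = 0.0380), a call that was lost in 10 settings, among them the removal of any library of these 2 groups. The summed neutrophil and precursor markers were also higher in Nlrp3-/- control libraries, as given above, and their part in the Cd38 level was not tested. In bulk RNA, more cells of a type and more RNA per cell cannot be told apart. The FPKM of Cd38 was 0.0761 ± 0.00762 of that of Nampt in wild-type control and 0.191 ± 0.0148 in Nlrp3-/- control, and 1.16 ± 0.0337 and 1.22 ± 0.0217 in the LPS+ATP groups of these genotypes (SD, n = 3). The NAD hydrolase message thus passed that of the salvage enzyme in all 6 stimulated libraries. The genes closest to Cd38 in their group means were Procr, Il6 and Iigp1, with root-mean-square differences of 0.17, 0.18 and 0.21.

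**Figure D2:**
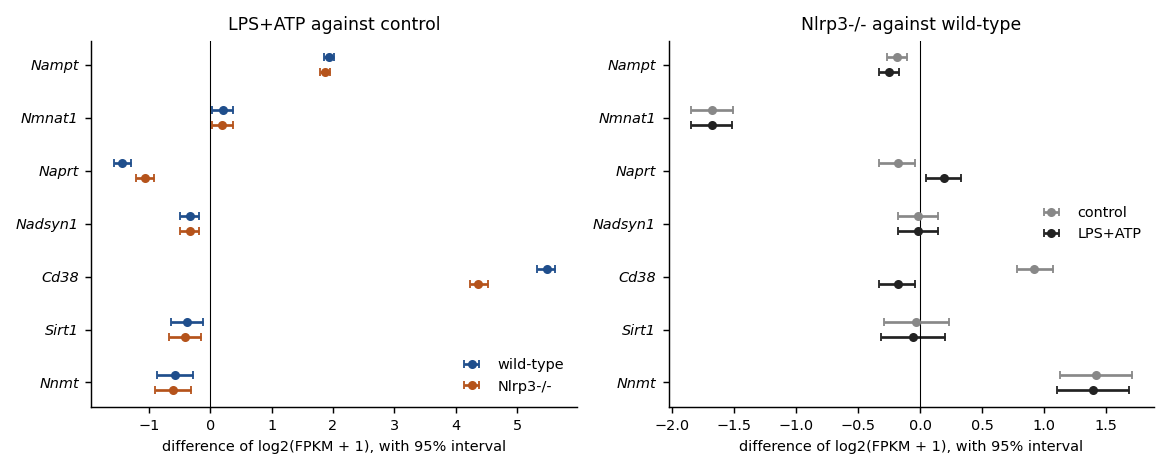
Differences of log2(FPKM + 1) (x axis) with 95% intervals from limma for the 7 members tested (y axis), LPS+ATP against control in each genotype (left) and Nlrp3-/- against wild-type in each state (right). The stimulation effects of Cd38 lie farthest apart between genotypes (5.48 and 4.37), and Nmnat1 (-1.68 in each state) and Nnmt (1.42 and 1.39) have the largest genotype differences.

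Bst1, the other NAD hydrolase of the CD38 family, is the neighbor of Cd38 on chromosome 5, with 24566 bases between the genes. Its control libraries had 18.3, 18.8 and 17.8 FPKM in wild-type and 22.0, 21.2 and 21.7 FPKM in the Nlrp3-/- BMDMs. With LPS+ATP it was 138, 141 and 143 FPKM in wild-type and 68.9, 65.0 and 64.8 FPKM in the Nlrp3-/- libraries. Stimulated wild-type libraries were thus well above stimulated Nlrp3-/- libraries, whereas control libraries lay close together. Bst1 rose by 2.88 on the log2 scale in wild-type (limma Benjamini-Hochberg adjusted p = 3.13e-14) and by 1.57 in Nlrp3-/- BMDMs (adjusted p = 5.28e-12), and the difference between these rises was -1.30 (adjusted p = 3.10e-08). Whereas the genotype difference of Cd38 was mainly one of control BMDMs, that of Bst1 was mainly one of stimulated BMDMs, at -1.08 (limma adjusted p = 8.78e-10) beside 0.23 in control (adjusted p = 1.71e-04). Exons of Bst1 overlap those of Fbxl5 on the other strand, and the sources do not say whether reads were counted by strand.

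**Figure D3:**
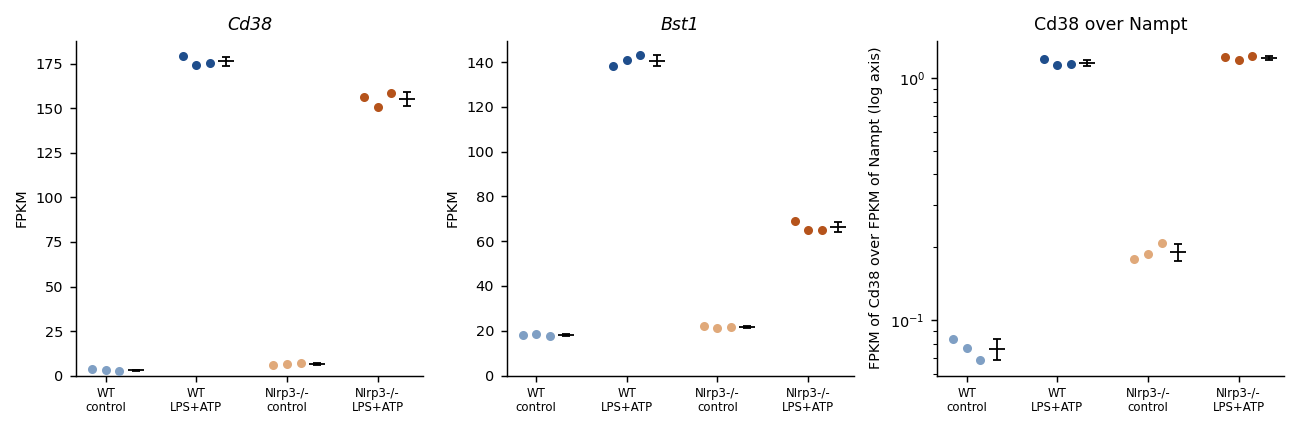
Left and middle, FPKM (y axis, linear, from 0) of Cd38 and Bst1 in each library by group (x axis), with mean ± SD (n = 3). Right, the ratio of Cd38 to Nampt in each library on a log axis, which was 0.0761 in wild-type control, 0.191 in Nlrp3-/- control, and 1.16 and 1.22 on average with LPS+ATP.

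The PARPs split into genes that rose and genes that fell with LPS+ATP. Tested were 16 genes among other NAD hydrolases and PARPs, which include Bst1. In wild-type BMDMs 10 were higher and 6 lower, beside 23.3% and 53.1% of all tested genes. In Nlrp3-/- BMDMs 9 were higher and 6 lower, beside 20.6% and 53.8%. With median-ratio scaling the same 10 and 9 genes were higher, but 2 of the 6 stayed lower in each genotype. The genes that rose past the fold limit in both genotypes were Bst1 and Parp14, Parp10, Parp11, Parp12 and Parp9, of which the PARPs encode mono-ADP-ribosyltransferases or, for Parp9, a partner of DTX3L, and are known as interferon-stimulated genes. Parp14 rose from 19.0 to 159 FPKM in wild-type (log2 fold change 3.01, limma Benjamini-Hochberg adjusted p = 2.44e-15) and from 15.5 to 144 FPKM in Nlrp3-/- BMDMs (3.14, adjusted p = 1.89e-15). Parp10 rose by 2.96 and 2.64, Parp11 by 2.45 and 2.48, Parp12 by 2.19 and 2.43, and Parp9 by 1.39 and 1.98 on the log2 scale in these genotypes. Tiparp, a target of the aryl hydrocarbon receptor, rose by 1.44 in wild-type and by 0.80 in Nlrp3-/- BMDMs, a difference of -0.65 (limma adjusted p = 1.39e-04). In Nlrp3-/- against wild-type BMDMs, Tiparp was higher by 0.23 in control (limma adjusted p = 0.00641), a call lost with median-ratio scaling. With LPS+ATP the difference was -0.42 (limma adjusted p = 8.59e-05). Exons of Parp10 overlap Plec on the same strand, those of Parp14 overlap Gm49730, and those of Parp9 and Tiparp overlap genes on the other strand (Dtx3l and 4931440P22Rik).

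Parp1, the main PARP of DNA repair, went the other way. It fell from 25.9 to 10.04 FPKM on average in wild-type (log2 fold change -1.28, limma Benjamini-Hochberg adjusted p = 3.97e-11) and from 20.6 to 11.1 FPKM in Nlrp3-/- BMDMs (-0.83, adjusted p = 2.52e-09). The fall was smaller in Nlrp3-/- BMDMs by 0.45 (limma adjusted p = 7.34e-05). Parp2, which shares this role, changed by -0.64 and -0.49 (limma adjusted p = 3.78e-07 and 4.98e-06), and by -0.36 and -0.23 with median-ratio and -0.49 and -0.37 with upper-quartile scaling, all past the test. Sarm1, a NAD hydrolase of neurons, did not exceed 0.106 FPKM.

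**Figure D4:**
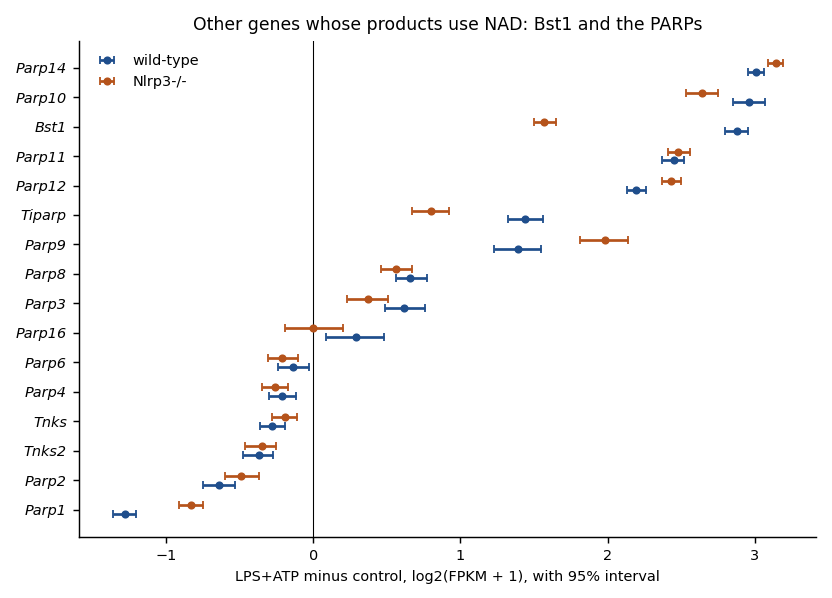
Change with LPS+ATP in log2(FPKM + 1) (x axis) with 95% intervals from limma for Bst1 and 15 PARP genes (y axis, ordered by the wild-type value), in wild-type (blue) and Nlrp3-/- (orange) BMDMs. The values run from -1.28 for Parp1 to 3.01 for Parp14 in wild-type, and the genotypes are farthest apart for Bst1 (2.88 and 1.57).

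Sirt1, the nuclear NAD-dependent deacetylase, was lower with LPS+ATP in both genotypes, with a wide spread among the wild-type control libraries (SD 1.14 FPKM). It lies on chromosome 10 of GRCm38 from 63319005 to 63381704 (ENSMUSG00000020063). Control libraries had 6.08, 4.95 and 3.80 FPKM in wild-type and 5.10, 4.90 and 4.31 FPKM in the Nlrp3-/- BMDMs. LPS+ATP libraries had 3.28, 3.48 and 3.78 FPKM in wild-type and 3.10, 3.54 and 3.33 FPKM in the Nlrp3-/- BMDMs. In wild-type the lowest control library lay just above the highest stimulated one, in Nlrp3-/- BMDMs the control libraries lay clearly above the stimulated ones, and the genotypes overlapped. The log2 fold change was -0.38 in wild-type (SE 0.12, limma Benjamini-Hochberg adjusted p = 0.0123) and -0.42 in Nlrp3-/- BMDMs (adjusted p = 0.00801). With median-ratio scaling these became -0.12 (limma adjusted p = 0.392) and -0.18 (adjusted p = 0.2), and with upper-quartile scaling -0.24 (adjusted p = 0.0838) and -0.31 (adjusted p = 0.0336). The genotype difference in control BMDMs was -0.03, with a 95% interval of -0.29 to 0.23. Exons of Sirt1 overlap the antisense gene Gm16145, which was listed at 0 in all libraries.

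Of the 5 other sirtuins tested, 1 was higher and 4 lower with LPS+ATP in wild-type, beside 23.3% and 53.1% of all tested genes. In Nlrp3-/- BMDMs 1 was higher and 3 lower, beside 20.6% and 53.8%. With median-ratio scaling 3 of these 4 and 2 of these 3 stayed lower past the test. Sirt6, a sirtuin of chromatin, was the one that rose, from 3.98 to 6.91 FPKM in wild-type (log2 fold change 0.67, limma Benjamini-Hochberg adjusted p = 4.39e-05) and from 3.93 to 6.70 FPKM in Nlrp3-/- BMDMs (0.64, adjusted p = 7.05e-05). Sirt7, a nucleolar sirtuin, fell from 8.94 to 4.44 FPKM (-0.88, limma adjusted p = 3.03e-06) and from 7.80 to 4.66 FPKM (-0.64, adjusted p = 5.11e-05) in the same genotypes, and these changes were -0.60 and -0.38 with median-ratio and -0.73 and -0.53 with upper-quartile scaling, all past the test. Exons of Sirt7 overlap those of Mafg on the same strand, so its values are uncertain. Sirt5 was not tested, with at most 1.06 FPKM.

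Nnmt, the nicotinamide N-methyltransferase, was higher in Nlrp3-/- BMDMs in both states and fell with LPS+ATP in both genotypes. It lies on chromosome 9 of GRCm38 from 48591877 to 48605153 (ENSMUSG00000032271). The wild-type control libraries had 2.99, 1.97 and 2.06 FPKM and the wild-type LPS+ATP libraries 1.11, 1.49 and 1.05 FPKM. In Nlrp3-/- BMDMs it was 7.20, 8.24 and 8.06 FPKM in control and 3.91, 5.35 and 5.16 FPKM in LPS+ATP libraries. No Nlrp3-/- library overlapped with a wild-type library, and no stimulated library with a control library of its genotype. Nnmt was 3.35-fold higher in Nlrp3-/- control BMDMs (log2 fold change 1.42, SE 0.13, limma Benjamini-Hochberg adjusted p = 3.97e-06) and 3.95-fold higher after LPS+ATP (1.39, adjusted p = 5.43e-06). The change with LPS+ATP was -0.58 in wild-type (limma adjusted p = 0.00177) and -0.61 in Nlrp3-/- BMDMs (adjusted p = 0.00136), and the difference between these was -0.03 (adjusted p = 0.929). With median-ratio scaling the changes were -0.39 (limma adjusted p = 0.0224) and -0.36 (adjusted p = 0.0342), and with upper-quartile scaling -0.48 and -0.50.

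Fibroblasts are known to express Nnmt, and all 6 fibroblast markers (Col1a1, Col1a2, Col3a1, Dcn, Pdgfra and Pdgfrb) were higher in Nlrp3-/- BMDMs in both states, 6 of them past the fold limit in control and 5 with LPS+ATP. Among all tested genes 33.3% and 35.9% were higher in these states, and 6.71% and 5.05% passed the fold limit in either direction. The summed FPKM of the 6 markers was over 4 times higher in every Nlrp3-/- library than in any wild-type library. With LPS+ATP the sum rose in wild-type libraries, where Nnmt fell, and fell in Nlrp3-/- libraries, where Nnmt also fell. The single markers were split in Nlrp3-/- BMDMs, where Col1a1, Col1a2 and Col3a1 were lower and Dcn, Pdgfra and Pdgfrb higher past the test. In wild-type BMDMs 5 markers were higher and 1, Col3a1, was lower. The part of fibroblasts in the Nnmt level was not tested. The genes closest to Nnmt in their group means were Epdr1, Tns2 and Rras2, with root-mean-square differences of 0.03, 0.03 and 0.05. Of the 4 tested partners of nicotinamide methylation and oxidation, 2 were higher and 1 lower in Nlrp3-/- control BMDMs. With LPS+ATP 1 was higher and 1 lower. The shares of all tested genes were 33.3% higher and 14.5% lower in control, and 35.9% and 12.6% with LPS+ATP. For Mat2b, the lower partner, the log2 difference was -0.41 in control (limma Benjamini-Hochberg adjusted p = 0.0318) and -0.56 with LPS+ATP (adjusted p = 0.00598). Ahcy clears the S-adenosylhomocysteine left by the methyl transfer. It was higher in Nlrp3-/- BMDMs by 0.55 in control (limma adjusted p = 1.27e-05) and by 0.88 with LPS+ATP (adjusted p = 3.04e-07). Pseudogenes of Ahcy are near identical to it, so its counts are uncertain. Aox1, an oxidase of nicotinamide products, rose with LPS+ATP from 0.335 to 1.32 FPKM in wild-type (0.80, limma adjusted p = 1.77e-06) and from 0.589 to 1.25 FPKM in Nlrp3-/- BMDMs (0.50, adjusted p = 1.04e-04).

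**Figure D5:**
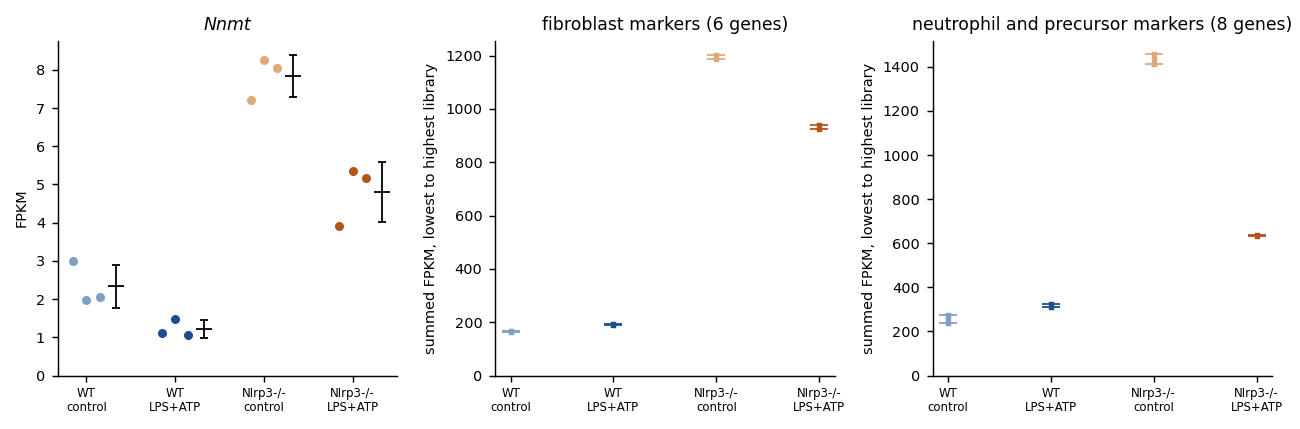
FPKM of Nnmt in each library by group with mean ± SD (n = 3, left), and the range over the 3 libraries of a group of the summed FPKM of 6 fibroblast markers (middle) and of 8 neutrophil and precursor markers (right), all on linear axes from 0. Nnmt averaged 2.34, 1.22, 7.83 and 4.81 FPKM from left to right, and both marker sums were highest in Nlrp3-/- control libraries.

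The order of the members by level changed with LPS+ATP. In wild-type control BMDMs it was Nampt, Nmnat1, Sirt1, Naprt, Cd38, Nadsyn1, Nnmt, Kmo and Kynu. In this order the libraries of Sirt1 and Naprt overlapped, as did those of Nnmt with those of Nadsyn1 and of Cd38. After LPS+ATP Cd38 led, at 176 ± 2.45 FPKM in wild-type BMDMs and 155 ± 3.97 FPKM in the Nlrp3-/- group (SD, n = 3), followed by Nampt. In Nlrp3-/- BMDMs Nnmt was second in control and the third with LPS+ATP, where Nmnat1 fell to the seventh and the fifth place. The libraries of Nmnat1 (1.93 to 2.19 FPKM) and Nadsyn1 (2.18 to 2.48 FPKM) overlapped in Nlrp3-/- control, so their order there is uncertain.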

How the data were processed

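Total RNA of BMDMs of both genotypes, unstimulated or after LPS+ATP, was sequenced as 12 Illumina TruSeq libraries, 3 per group. The authors deposited 1 table of FPKM per gene and library. The submitters' processing notes name the genome build GRCm39 and DESeq2 1.24.0, and the aligner, the annotation, the strand setting and the scaling between libraries are not given in the sources used here. The table had 0 columns of per-library values left unused. FPKM gives no read counts, so no interval or floor from counting was computed.

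A gene was tested if 3 or more libraries had 1 FPKM or more, which held for 12622 of 55335. Values of log2(FPKM + 1) were fitted in limma 3.58.1 under R 4.3.3, using 1 mean per group, a trend in the variance and Benjamini-Hochberg adjustment over all tested genes. A call needed an adjusted p under 0.05, and calls that also reached an absolute log2 fold change of 1 were counted separately. LPS+ATP was compared with control in each genotype, Nlrp3-/- with wild-type in each state, and the interaction of both. The scripts were tested on simulated data.

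The members, lists and tests were chosen with earlier results of these data known. All 9 members were named, and of 7 pathway lists the genes past the fold limit in a comparison of 2 groups. Genes that did not reach 1 FPKM often enough, and Nadk, Nmrk1, Nmnat2, Nmnat3, Parp2, Sirt6, Sirt7, Ahcy, Mat2b, Aox1, Ahrr and Cyp1a1, were named after their values were seen. Likeness was measured over the 4 group means of log2(FPKM + 1), each centred on their mean. Positions and overlaps of genes were read from GENCODE M21 (GRCm38), which holds 55154 of the identifiers and is not the build of the submitters, and near copies from blastn 2.17.0+ (95% identity, 20% or more of the longest transcript). Promoters came from RefSeq (GRCm38.p6). The table was handled in Python 3.11.15 with pandas 2.3.3, numpy 2.4.6 and matplotlib 3.10.9.

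Alternatives were another pseudocount (0.1), a filter at 5 FPKM or none, 3 other scalings (TPM, median-ratio, upper-quartile), the fold limit, a fit with the replicate block, without the trend or of the compared groups only, and the removal of each library. A pseudocount of 0.1 without the filter, for Kmo and Kynu, was added after the data were seen.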

Additional observations from a re-analysis of the deposited data

Results flagged for a closer look

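The effect of LPS+ATP differed between genotypes, by the interaction term of limma with Benjamini-Hochberg adjustment, for 2 members and for 15 of the 41 tested genes of the pathway lists (6 higher and 9 lower), beside 14.7% higher and 13% lower among all tested genes. Values follow for the 13 of these 15 that are among the 17 named genes, which were picked for their size in a comparison of 2 groups. For Cd38 the effect in Nlrp3-/- minus that in wild-type BMDMs was -1.11 on the log2 scale, and for Naprt it was 0.37. Among the other NAD consumers it was -1.30 for Bst1, 0.45 for Parp1, -0.65 for Tiparp, 0.58 for Parp9, -0.32 for Parp10, 0.24 for Parp12 and 0.13 for Parp14. The value for Parp14 lost its call with median-ratio and upper-quartile scaling and without the trend (adjusted p up to 0.112). Among the genes of tryptophan uptake and use it was -0.44 for Slc7a5, -0.36 for Slc3a2, -0.80 for Slc7a8 and 0.38 for Il4i1. The call for Slc7a5 was lost in 6 settings (adjusted p up to 0.0596). That for Il4i1 was lost in 14 settings, and its value was -0.10 at the lowest. For Ahr it was -0.81 and for its target Cyp1b1 -0.49. Fibroblast and neutrophil and precursor markers also responded to LPS+ATP differently in the 2 genotypes, with 5 of 6 and 5 of 7 tested genes lower in the interaction, and their part in these values was not tested. Groups of 3 libraries were not searched for single libraries that stand apart.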

How the results depend on the processing

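No called value of a member changed direction in any alternative. Over the comparisons of the tested members, and of Kmo and Kynu without the filter, 646 values kept their direction and their side of the threshold. Of the others, 44 lost their call and 33, all uncalled in the main result, changed sign. The fold limit left 3 members with LPS+ATP in each genotype, 2 and 2 between genotypes and 1 in the interaction. The filter of FPKM at least 5 left 4 members, of which 4 and 4 passed with LPS+ATP and 1 in the interaction. Without the filter 3 passed between genotypes with LPS+ATP. Leaving out 1 library gave 6 to 7 members with LPS+ATP in wild-type and 6 to 7 in Nlrp3-/- BMDMs, 4 to 5 between genotypes in control, 3 to 5 with LPS+ATP (3 without wild-type LPS+ATP replicate 2 or Nlrp3-/- LPS+ATP replicate 1 or 2) and 2 to 2 in the interaction. Uncalled values that changed sign were the interaction of Nadsyn1 (-0.02 with median-ratio and -0.03 with upper-quartile scaling, -0.07 to 0.05 without 1 library), of Nmnat1 (0.05 with a pseudocount of 0.1, 0.04 with TPM, -0.09 to 0.06 without 1 library), of Nnmt (0.18, 0.13 and, with median-ratio scaling, 0.03, and -0.16 to 0.09 without 1 library) and of Sirt1 (-0.17 to 0.11 without 1 library), and the genotype difference of Nadsyn1 (-0.05 to 0.01 in control and -0.09 to 0.03 with LPS+ATP) and Sirt1 (-0.17 to 0.11 in control) without 1 library. Of the 74 calls of the named pathway genes, 13 were lost in at least 1 setting and 2 changed sign. The cause was not tested.

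No shared deviation of libraries with the same replicate number was seen, and the sources do not say whether the numbers pair them. The deviations from the group means of libraries with the same number correlated by -0.057 to 0.053. With the replicate block, 7 and 7 members passed with LPS+ATP, 4 and 4 between genotypes and 2 in the interaction. The calls lost under the block were Naprt in control (-0.18, limma adjusted p = 0.0517) and Cd38 with LPS+ATP (-0.18, adjusted p = 0.0579).

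FPKM holds no depth, so the precision of values under 1 FPKM, such as those of Kmo and Kynu, is unknown. Sex, genotype, the level of Nnt and the markers of other cells changed together.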

Other observations

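The FPKM of Nampt was 8.90 ± 0.482 times that of Naprt in wild-type control and 9.11 ± 0.476 times in Nlrp3-/- control libraries, and 154.9 ± 23.6 and 101 ± 12.9 times with LPS+ATP in these genotypes (SD, n = 3). The genes whose group means ran closest to those of Naprt were Tmem144, Gm5547 and Gm2a, with root-mean-square differences of 0.01, 0.02 and 0.02 on the log2 scale. Gm2a, the activator protein of lysosomal ganglioside breakdown, was 87.4 and 31.5 FPKM on average in wild-type control and LPS+ATP and 74.2 and 35.0 FPKM in Nlrp3-/- control and LPS+ATP BMDMs.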
